A study of Mus musculus with 6 samples.

Results

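The genes described here are 31 genes of the interstitial liver matrix and of the cells that make it: fibrillar and type VI collagens, proteoglycans and glycoproteins, lysyl oxidases, matrix proteases and their inhibitors, and contractile and surface markers of stellate cells and fibroblasts. They were taken by gene symbol from a list, and all 31 were present once each among the 18720 rows of the deposited tables. All 31 also passed the filter on low values, a mean of at least 10. The livers came from male C57BL/6 mice aged 1 year when put on a high-fat diet. The R159 group (3 libraries, HFD, R159) was injected intraperitoneally with R159, a compound known here by its code name only, and the vehicle group (3 libraries, HFD, Vehicle) with vehicle, 2 times a week over 12 weeks in both groups. Every group was on the high-fat diet, so no value here separates the diet from a normal one, and the dose is not given in the sources used here. Nothing in the labels ties each library to its own mouse. The p-values therefore rest on how far these 6 libraries spread, and some of that spread may be technical. Of the 9 hepatocyte markers listed 8 were present in the tables. Alb, which encodes albumin, was at 3230000 to 4790000 in R159 livers and 2700000 to 4050000 in vehicle livers.

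Hepatic stellate cells lie between hepatocytes and the sinusoidal endothelium and store retinoids. In injured or fatty liver they can become myofibroblasts, which express smooth muscle actin and secrete collagens I and III. Secreted procollagens assemble into fibrils, lysyl oxidases crosslink them, and metalloproteinases, held in check by tissue inhibitors, remodel them. Fibroblasts of the portal tract, smooth muscle cells of vessels and mesothelial cells of the capsule express many of the same genes, and in RNA from whole liver fewer cells of a type and less RNA per cell cannot be told apart.

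Values are normalised estimated counts, and log2 fold changes are R159 minus vehicle on the log2(value + 1) scale, with the standard error (SE) and the Benjamini-Hochberg adjusted p of limma over all 16594 tested genes, called at adjusted p under 0.05. Estimated depth was 51.3 to 55.7 M reads in R159 libraries and 66.0 to 76.7 M in vehicle libraries. R159 libraries were less alike (Pearson's r across genes 0.939 to 0.949) than vehicle libraries (0.979 to 0.986). The log2 fold change of all coding genes with a mean of at least 100 went down as transcripts got longer (Spearman's rho -0.50 over 11161 genes, a description only, since genes share their libraries). By library, rho of length with the deviation from each gene's mean was 0.0166, -0.598 and -0.488 in R159 replicates 1, 2 and 3. In vehicle replicates 1, 2 and 3 it was 0.337, 0.467 and 0.507. R159 replicate 1 thus did not share the trend of the other R159 libraries. A pair of libraries stood apart on the genes described here: R159 replicate 3 was the highest of its group for 30 of the 31 genes, and vehicle replicate 1 was the highest of its group for 25. The members are long transcripts (median 4653 nt), so a second fold change was fitted with the length trend of each library removed. Its value, or its effect on the call, is given for each gene named below whose call depended on it.

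Of the 31 genes, 11 were called lower in R159 livers and 0 higher, and 17 had an unadjusted p under 0.05. The 11 genes called lower were 35.5% of the members, against 14.2% of all tested genes called lower and 12.8% called higher. Among the 15 members whose transcripts lay between 2738 and 6278 nt, the range between their quartiles, 8 were called lower, against 23.0% of coding genes in that range of length. The median log2 fold change was -0.73 over the members, 0.001 over all tested genes and -0.29 over coding genes in that range. In 11 members all 3 R159 values lay below all 3 vehicle values, and in 1, Hhip, all lay above. The same separation was found in 23.6% (R159 lower) and 22.5% (R159 higher) of all tested genes. After removal of the length trend 3 members were lower, Col1a1, Col1a2 and Mmp2, and 1 was higher, Hhip. Those 3 are 9.68% of the members, and 8.21% of the genes in that fit were called lower and 9.95% higher, so the share of members called was then near the background. The median log2 fold change in that fit was -0.45 over the members and 0.007 over all its genes. Only Col1a1, Col1a2 and Mmp2 kept their call in each of the 6 fits that left out 1 library and in each of the 8 other settings tried. Without R159 replicate 3, 20 members were called lower, against 12.2% of all genes in that fit. Without vehicle replicate 1 or vehicle replicate 3, 3 members were, which is 9.68% of them, against 7.53% and 6.70% of all genes in those fits, so the members' share was then near the background.

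**Figure D1:**
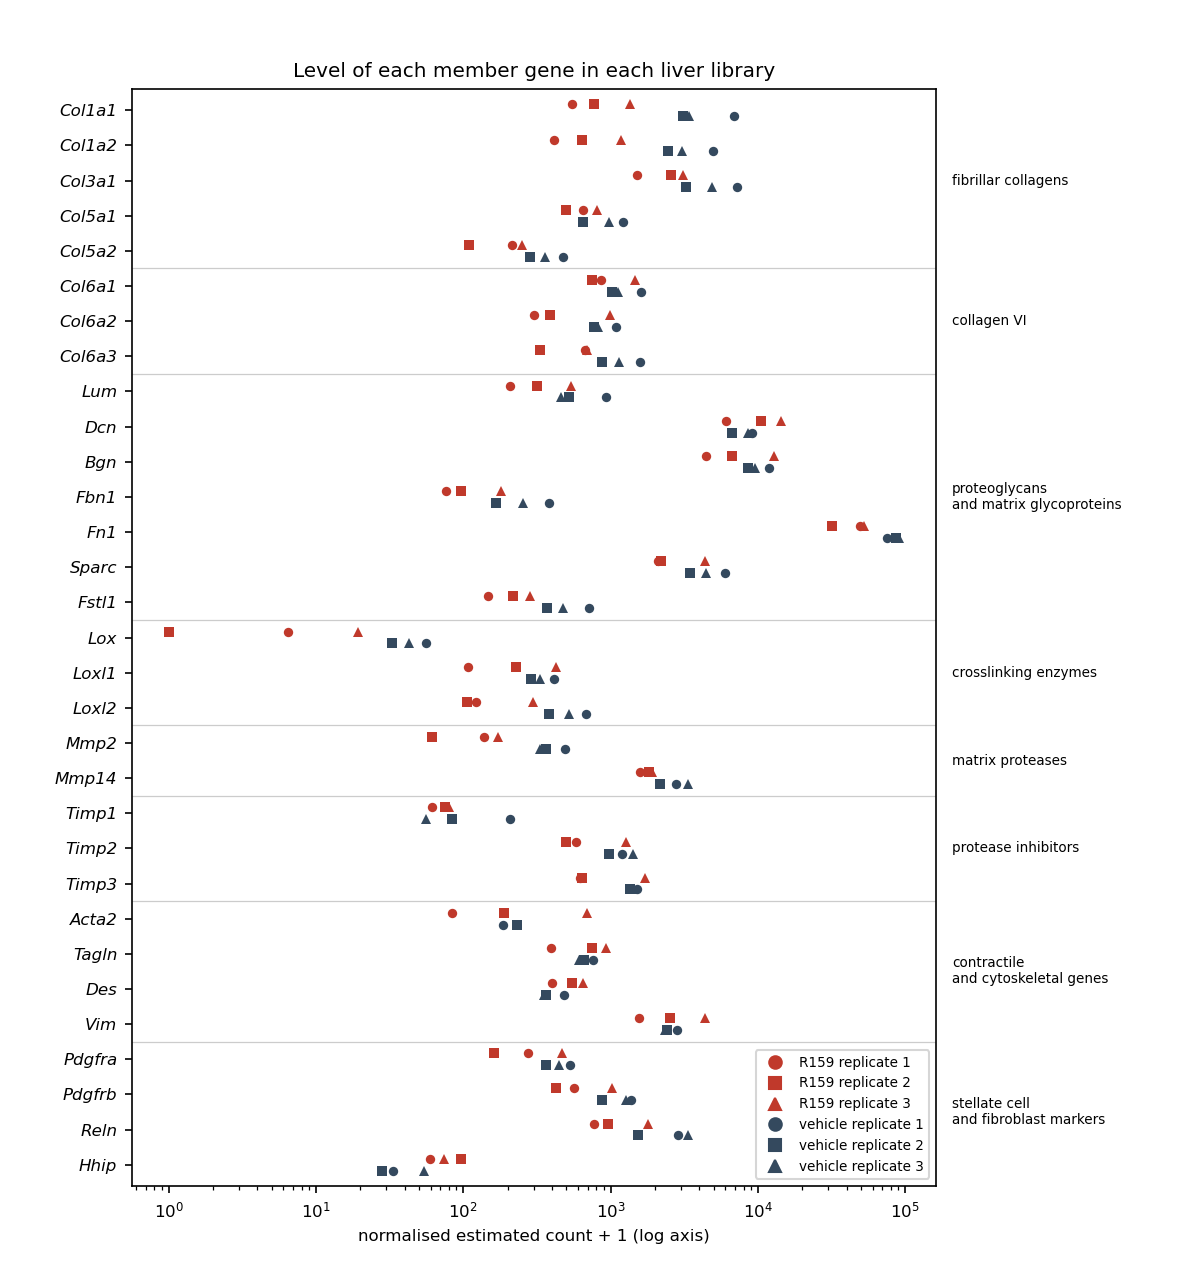
Normalised estimated count plus 1 (horizontal log axis) of each of the 31 genes in each library, R159 in red above vehicle in dark blue, with 1 marker shape per replicate number. The red and blue points are farthest apart for Col1a1, Col1a2, Lox and Mmp2 and are mixed for Dcn, Acta2, Tagln, Des and Vim.

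The fibrillar collagens form the tensile scaffold of the matrix. The mRNAs of type I collagen, Col1a1 and Col1a2, fell to 0.2 and 0.213 of their vehicle means in R159 livers, and that of type III collagen, Col3a1, to 0.467, a call that the length correction ended. Col1a1 was at 551, 775 and 1359 in R159 livers, against 6869, 3113 and 3416 in vehicle livers. The groups were far from overlapping, with the highest R159 value under the lowest vehicle value. The mean was 895 ± 417 in R159 livers and 4466 ± 2090 in vehicle livers (SD, n = 3 each), a log2 fold change of -2.32 (SE 0.37, limma adjusted p = 0.00483). Col1a2 was at 410, 638 and 1170 in R159 livers, against 4927, 2450 and 3043 in vehicle livers (log2 fold change -2.30, SE 0.38, limma adjusted p = 0.00496). Both genes remained called after removal of the length trend, at -1.85 and -1.86 (limma adjusted p = 0.0207 and 0.02).

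The 2 chains of type I collagen stayed in step. Per kb of transcript, Col1a1 was 1.21, 1.09 and 1.05 times Col1a2 in R159 livers, against 1.26, 1.15 and 1.01 times in vehicle livers. These ratios overlapped between the groups and lay near 1 in all 6 libraries, although the group means of each gene lay far apart.

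Col3a1, whose product forms fibrils together with type I collagen, was at 1514, 2571 and 3115 in R159 livers, against 7236, 3253 and 4914 in vehicle livers. The groups did not overlap, but the highest R159 library and the lowest vehicle library nearly met. It was called lower, with limma adjusted p = 0.0393 at a log2 fold change of -1.08 (SE 0.33), but not after removal of the length trend (-0.63, limma adjusted p = 0.27), and it lost the call in 4 of the 6 fits that left out 1 library. Col1a1 and Col3a1 transcripts are of similar length (5930 and 5564 nt). Per kb, Col1a1 was at 0.341, 0.283 and 0.409 of Col3a1 in R159 livers, against 0.891, 0.898 and 0.652 in vehicle livers. Type I collagen mRNA was thus lower relative to type III in every R159 library than in any vehicle library; this ratio and the others below were chosen after their values were seen and were not tested.

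Type V collagen starts the fibril and limits its diameter. Col5a1 was at 651, 495 and 803 in R159 livers, against 1208, 648 and 980 in vehicle livers (log2 fold change -0.52, SE 0.27, limma adjusted p = 0.172). With the length trend removed its log2 fold change was -0.01. Col5a2 was at 214, 109 and 250 in R159 livers, against 473, 284 and 355 in vehicle livers, without overlap, and lay just short of the threshold (-1.01, SE 0.34, limma adjusted p = 0.056). Col5a3, the gene of the third type V chain and not one of the 31, went the other way and was named by the rule for the list of other matrix genes. It was at 13269, 8227 and 5161 in R159 livers, against 2517, 2952 and 2009 in vehicle livers, a log2 fold change of 1.75 (SE 0.31, limma adjusted p = 0.00633), and 2.23 with the length trend removed (limma adjusted p = 0.00414). Its lowest R159 value was in replicate 3, the library in which 30 of the 31 members were highest.

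Promoter windows are shown for Col1a2 and Col3a1, as fibrillar collagen genes that fell, and for Acta2, the myofibroblast actin gene that was not called, so that their sequences can be set side by side. They are RefSeq windows of build GRCm38.p6, 300 bases each from 250 before to 50 after the annotated start, on the strand of the gene; the submitters' processing notes name mm39, a different build. Of the 31 symbols, 20 matched the table; Col1a1, Col5a2, Lum, Dcn, Fn1, Tagln, Pdgfrb, Lox, Loxl1, Loxl2 and Mmp2 were unmatched. Capitals mark 4 motifs searched on both strands: the CCAAT box (CCAAT), the GC box (GGGCGG), the TATA box (TATAAA) and a CArG-like box, the kind of site bound by serum response factor, with at most 1 C or G among its 6 central bases. None of the marked motifs overlap one another.
Col1a2, chr6:4505368-4505667, plus strand: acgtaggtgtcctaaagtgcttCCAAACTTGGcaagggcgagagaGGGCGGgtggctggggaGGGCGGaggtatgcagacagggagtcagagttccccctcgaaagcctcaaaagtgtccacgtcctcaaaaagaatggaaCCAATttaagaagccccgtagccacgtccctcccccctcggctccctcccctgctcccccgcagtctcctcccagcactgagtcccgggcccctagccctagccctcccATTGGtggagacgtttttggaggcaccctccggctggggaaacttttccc
Col3a1, chr1:45311288-45311587, plus strand: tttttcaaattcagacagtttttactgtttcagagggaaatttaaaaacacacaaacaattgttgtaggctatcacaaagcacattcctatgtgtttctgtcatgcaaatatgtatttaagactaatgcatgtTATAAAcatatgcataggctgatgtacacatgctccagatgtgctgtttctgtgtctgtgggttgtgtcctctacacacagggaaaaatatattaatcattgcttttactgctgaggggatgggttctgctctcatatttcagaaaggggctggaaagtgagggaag
Acta2, chr19:34255324-34255623, minus strand: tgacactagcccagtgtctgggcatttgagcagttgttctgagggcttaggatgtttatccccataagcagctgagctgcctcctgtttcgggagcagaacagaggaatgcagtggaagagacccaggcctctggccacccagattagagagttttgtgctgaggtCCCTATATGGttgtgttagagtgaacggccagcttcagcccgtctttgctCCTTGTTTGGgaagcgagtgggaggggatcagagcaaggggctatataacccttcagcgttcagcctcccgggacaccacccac
The Col1a2 window held a CCAAT box 109 to 105 bases before the start and another on the opposite strand at the start itself, 2 GC boxes and 1 CArG-like box. The Col3a1 window had 37.7% G and C, against 61.0% in Col1a2, and held a single TATA box. The Acta2 window held CCCTATATGG 84 to 75 bases and CCTTGTTTGG 34 to 25 bases before the start, both CArG-like boxes. Among the 20 matched members, 5 held a CCAAT box (37.4% of all 32851 windows), 13 a GC box (35.7%), 2 a TATA box (13.6%) and 5 a CArG-like box (9.98%). A member was counted if any window of its symbol held the motif, while the percentages are shares of single windows, so the measures differ. Of the 6 matched members called lower, these numbers were 2, 4, 1 and 3. A match describes letters in the window and is no sign that a factor binds there.

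**Figure D2:**
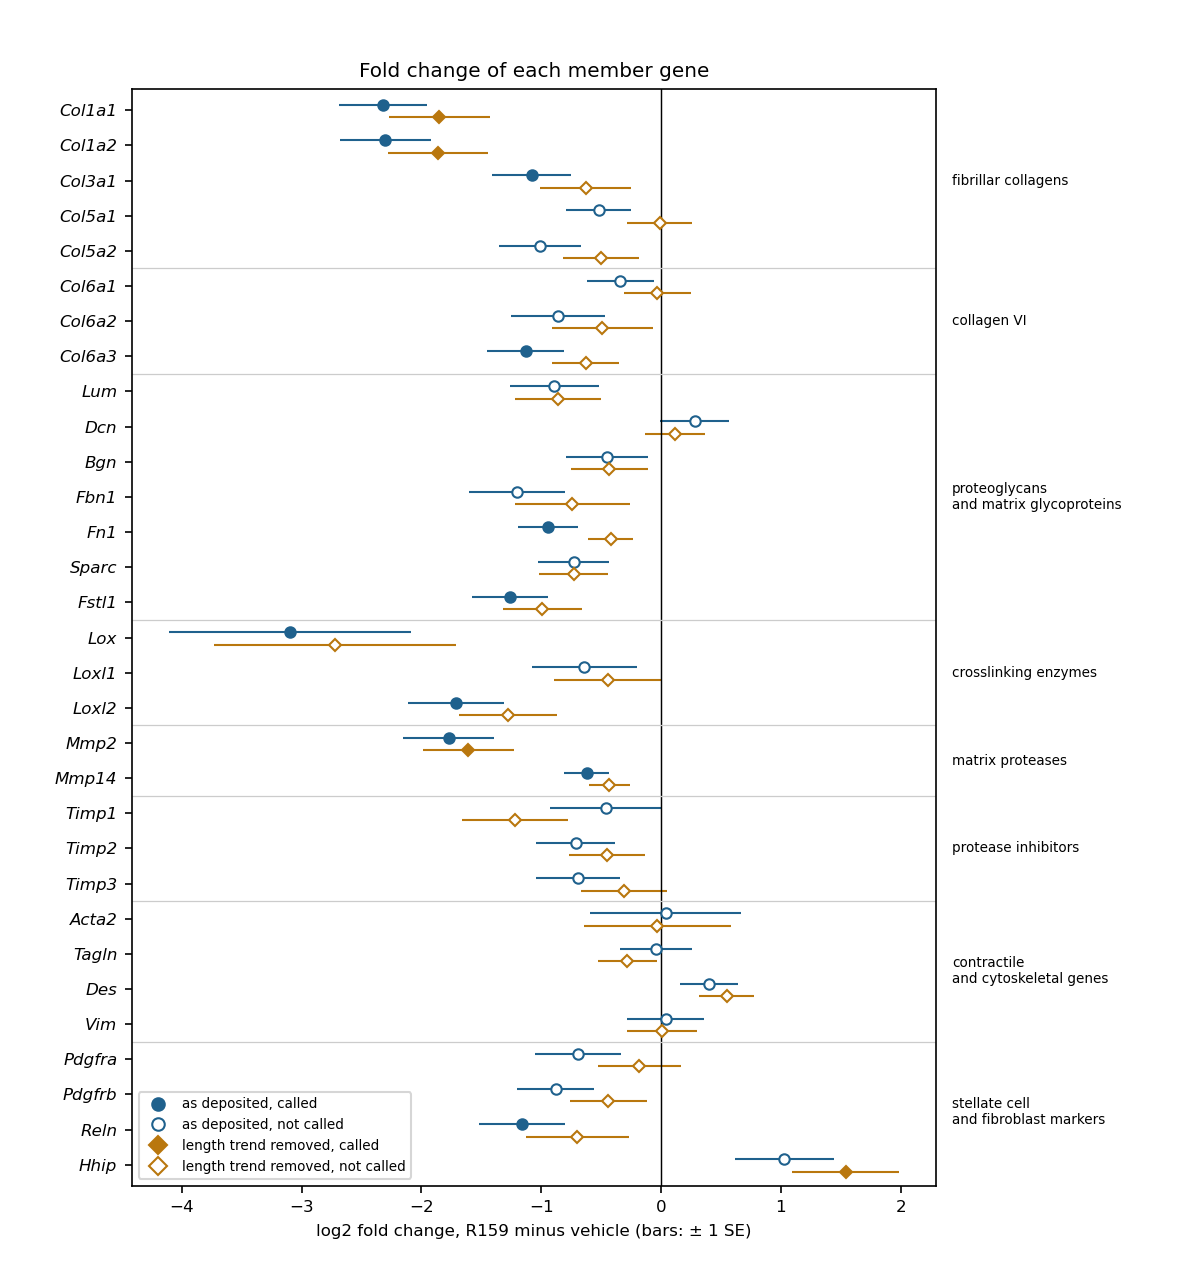
Log2 fold change (R159 minus vehicle, bars ± 1 SE) of each gene as deposited (blue circles) and with the length trend of each library removed (orange diamonds), filled where limma called the gene at adjusted p under 0.05. Of the 11 filled circles, 3 keep a filled diamond, Col1a1, Col1a2 and Mmp2, and Hhip gains one on the higher side.

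Type VI collagen forms beaded filaments around cells, from chains encoded by Col6a1, Col6a2 and Col6a3. Only Col6a3 was called lower (33.3% of the 3, against 14.2% of all tested genes). It was at 665, 331 and 688 in R159 livers, against 1581, 878 and 1137 in vehicle livers, without overlap (log2 fold change -1.13, SE 0.32, limma adjusted p = 0.0304; -0.63 and 0.149 with the length trend removed). Its call was lost without R159 replicate 2, vehicle replicate 1 or vehicle replicate 3, and its transcript of 10106 nt is among the longest of the 31. Col6a1 was at 855, 743 and 1458 in R159 livers, against 1620, 1029 and 1130 in vehicle livers (limma adjusted p = 0.381), and the groups overlapped. Col6a2 was at 299, 390 and 984 in R159 livers, against 1091, 771 and 819 in vehicle livers (-0.86, limma adjusted p = 0.13), with R159 replicate 3 inside the range of vehicle livers. Per kb, Col6a1 was 3.24, 2.17 and 1.68 times Col6a2 in R159 livers, against 1.69, 1.51 and 1.57 times in vehicle livers, with overlap. Col6a3 was at 0.316, 0.18 and 0.191 of Col6a1 in R159 livers, against 0.396, 0.346 and 0.408 in vehicle livers. Every R159 ratio of Col6a3 to Col6a1 lay below every vehicle ratio, but Col6a3 is much longer than Col6a1 (4100 nt), and how much of this ratio goes with length was not tested.

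Among 7 proteoglycan and glycoprotein genes, 2 were called lower, Fn1 and Fstl1, and 0 higher. The 2 are 28.6% of the 7, against 14.2% of all tested genes and 23.0% of coding genes in the members' middle range of length. Fn1 encodes fibronectin, which hepatocytes secrete into plasma as well as stromal cells into matrix, and was per kb the most abundant of the 31 in vehicle livers (10100 per kb). It was at 49357, 32053 and 52853 in R159 livers, against 74657, 86109 and 91373 in vehicle livers (log2 fold change -0.94, SE 0.25, limma adjusted p = 0.0247). The groups did not overlap, but the call was lost with the length trend removed (-0.42, limma adjusted p = 0.155) and without R159 replicate 2 or any 1 of the vehicle libraries. Fstl1, which encodes a secreted follistatin-like glycoprotein of mesenchymal cells, was at 147, 217 and 283 in R159 livers, against 717, 369 and 475 in vehicle livers (-1.26, SE 0.32, limma adjusted p = 0.0203; -0.99 and 0.0692 with the length trend removed). It was not called without vehicle replicate 1 or vehicle replicate 3.

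The small leucine-rich proteoglycans, which coat collagen fibrils, gave 0 calls. Dcn, encoding decorin, was at 6084, 10507 and 14411 in R159 livers, against 9135, 6686 and 8509 in vehicle livers (log2 fold change 0.28, SE 0.29, limma adjusted p = 0.505). Bgn, encoding biglycan, was at 4472, 6651 and 12815 in R159 livers, against 11954, 8527 and 9625 in vehicle livers (-0.45, limma adjusted p = 0.338). In both genes R159 replicate 3 exceeded every vehicle library, so the groups overlapped. Lum, encoding lumican, was at 208, 313 and 534 in R159 livers, against 924, 523 and 463 in vehicle livers (-0.89, SE 0.37, limma adjusted p = 0.102), also with overlap.

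Fbn1, which encodes the microfibril protein fibrillin-1, was at 75.9, 95.1 and 180 in R159 livers, against 384, 166 and 253 in vehicle livers (log2 fold change -1.20, SE 0.40, limma adjusted p = 0.0544). The highest R159 value lay above the lowest vehicle value. In the reference annotation, 20.1% of its exon bases also belong to Gm9913 on the opposite strand, and the sources used here do not say whether counting used strand. Sparc, encoding a collagen-binding glycoprotein, was at 2110, 2193 and 4363 in R159 livers, against 6005, 3444 and 4456 in vehicle livers (-0.73, limma adjusted p = 0.101), with overlap through R159 replicate 3.

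Of the 3 lysyl oxidase genes, Lox and Loxl2 were called lower (66.7%, against 14.2% of all tested genes) and Loxl1 was not. Loxl2, whose product crosslinks collagen, was at 121, 105 and 298 in R159 livers, against 679, 379 and 525 in vehicle livers, without overlap. Its log2 fold change was -1.71 (SE 0.40, limma adjusted p = 0.0156), and -1.28 with the length trend removed (limma adjusted p = 0.0617). The call was lost without vehicle replicate 1 or vehicle replicate 3. A noncoding transcript on the opposite strand, Gm27177, which shares 5.57% of the exon bases of Loxl2, averaged 209 in R159 livers and 9.87 in vehicle livers.

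Lox, the founding lysyl oxidase gene, was the scarcest of the 31 in R159 livers, per kb. It was at 5.42, 0 and 18.4 in R159 livers, against 54.8, 32.1 and 41.9 in vehicle livers, which correspond to 5, 0 and 15 estimated reads in R159 libraries and 66, 44 and 50 in vehicle libraries. The groups did not overlap. The log2 fold change was -3.10 (SE 1.01, limma adjusted p = 0.0494), the widest error of the 31, just inside the threshold. It was not called with a pseudocount of 0.5, with the length trend removed, without the empirical Bayes trend, under another scaling or without any 1 library other than R159 replicate 3. Loxl1, needed for elastic fibres in mice, was at 107, 227 and 427 in R159 livers, against 415, 289 and 333 in vehicle livers (-0.64, SE 0.44, limma adjusted p = 0.297), and R159 replicate 3 exceeded all vehicle livers. Per kb, Loxl2 was at 0.698, 0.287 and 0.433 of Loxl1 in R159 livers, against 1.01, 0.815 and 0.979 in vehicle livers, without overlap.

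Both proteases were called lower, and the 3 inhibitors, all with a log2 fold change below 0 (median -0.69), were not called. Of all tested genes 14.2% were called lower, and lists of 2 and 3 genes are too short to set against that share. Mmp2, encoding gelatinase A, was at 138, 60.7 and 171 in R159 livers, against 486, 365 and 329.6 in vehicle livers. All R159 values lay far below the vehicle values. The log2 fold change was -1.77 (SE 0.38, limma adjusted p = 0.0115), and -1.61 with the length trend removed (limma adjusted p = 0.0235). Mmp14, which encodes the membrane-bound protease that activates pro-MMP2, was at 1592, 1826 and 1903 in R159 livers, against 2787, 2168 and 3346 in vehicle livers. The R159 values lay close together and below all vehicle values, with a log2 fold change of -0.62 (SE 0.19, limma adjusted p = 0.0381). It was not called with the length trend removed (-0.43, limma adjusted p = 0.108), and in the fits that left out 1 library it was called in 1 of 6.

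Timp2, whose product both inhibits MMP2 and bridges its activation by MMP14, was at 585, 499 and 1281 in R159 livers, against 1192, 981 and 1413 in vehicle livers (log2 fold change -0.71, SE 0.33, limma adjusted p = 0.135). Timp3, which encodes the matrix-bound inhibitor, was at 619, 644 and 1723 in R159 livers, against 1502, 1361 and 1420 in vehicle livers (-0.69, SE 0.35, limma adjusted p = 0.168). Per kb, Mmp2 was at 0.285, 0.147 and 0.161 of Timp2 in R159 livers, against 0.491, 0.448 and 0.281 in vehicle livers. Mmp14 was 3.12, 4.19 and 1.7 times Timp2 in R159 livers, against 2.68, 2.53 and 2.71 times in vehicle livers. Both ratios of protease to inhibitor overlapped between the groups. For Timp2 and Timp3 alike, 2 of the R159 libraries lay well below the vehicle range while replicate 3 lay within or above it, and without that replicate both were called lower. Of the exon bases of Timp3, 21.3% are shared with Syn3 on the opposite strand, which averaged 121 in R159 livers and 70.3 in vehicle livers. Timp1, the inhibitor often induced in injured liver, was at 60.7, 74.8 and 79.7 in R159 livers, against 207, 82.4 and 55.3 in vehicle livers (-0.46, limma adjusted p = 0.493). Its high mean in vehicle livers came from vehicle replicate 1, and without that library the log2 fold change was 0.08. Timp1 has the shortest transcript of the 31 (883 nt), and with the length trend removed its log2 fold change was -1.22 (limma adjusted p = 0.086).

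Of the 4 contractile and cytoskeletal genes 0 were called, and 0 had an unadjusted p under 0.05. Acta2, encoding alpha smooth muscle actin, was at 82.4, 188 and 686 in R159 livers, against 184, 229.6 and 232 in vehicle livers (log2 fold change 0.04, SE 0.63, limma adjusted p = 0.968). The R159 libraries differed 8.33 times among themselves and the vehicle libraries 1.26 times. Tagln, encoding the actin-binding transgelin, was at 393, 753 and 931 in R159 livers, against 760.2, 657 and 605 in vehicle livers (-0.04, SE 0.30, limma adjusted p = 0.924). Of its exon bases, 62.4% are shared with the antisense gene Gm48529, which averaged 177 in R159 livers and 164 in vehicle livers. Des, encoding the desmin of stellate and muscle cells, was at 397, 549 and 651 in R159 livers, against 480.0, 362 and 354 in vehicle livers (0.40, SE 0.24, limma adjusted p = 0.234). Vim, the vimentin gene of mesenchymal cells, was at 1563, 2515 and 4356 in R159 livers, against 2808, 2403 and 2323 in vehicle livers (0.04, SE 0.32, limma adjusted p = 0.934). In all 4 genes the R159 values spread to both sides of the vehicle values or overlapped them.

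Type I collagen was lower relative to the cytoskeletal genes as well. Per kb, Col1a1 was at 0.377, 0.277 and 0.393 of Tagln in R159 livers, against 2.43, 1.27 and 1.52 in vehicle livers. Against Vim it was at 0.13, 0.114 and 0.115 in R159 livers, and 0.905, 0.479 and 0.544 in vehicle livers. R159 replicate 3, which was high for nearly all members, did not stand apart in either ratio. Tagln and Vim are shorter than Col1a1 (1595 and 2193 nt), so these ratios include the length trend. Against genes of similar length the separation was also complete: Col1a1 was at 0.897, 1.68 and 1.22 of Pdgfrb per kb in R159 livers, against 4.58, 3.24 and 2.46 in vehicle livers. Against Lrat, the retinol-esterifying enzyme of stellate cells, it was at 0.465, 0.928 and 1.24 in R159 livers and 4.19, 3.63 and 2.18 in vehicle livers. Lrat was picked from 13 further stellate cell markers that went both ways, 8 of them with a log2 fold change below 0.

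**Figure D3:**
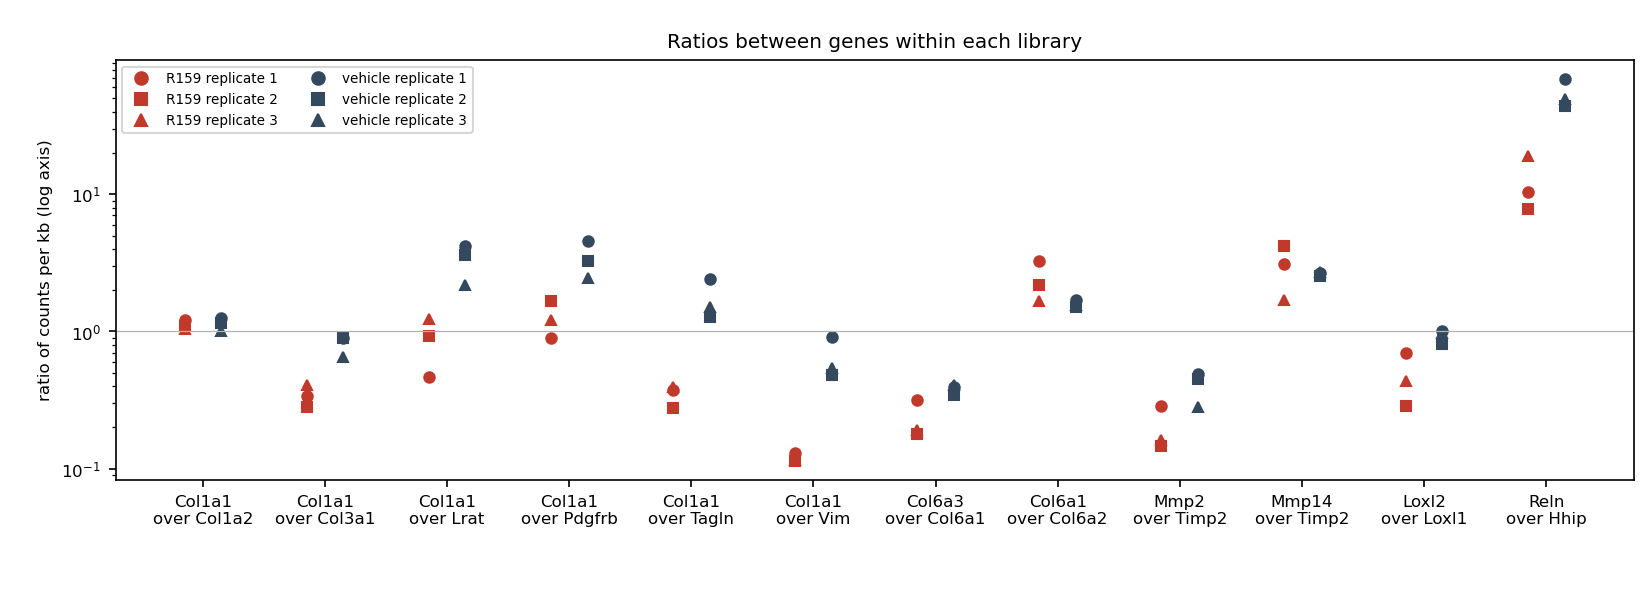
Ratio of 2 genes within each library, per kb of transcript (vertical log axis), R159 in red left of vehicle in dark blue, with 1 marker shape per replicate number. The ratio of Col1a1 to Col1a2 lies between 1.01 and 1.26 in all libraries, and of the other 11 ratios every R159 library lies below every vehicle library in 8, while Col6a1 to Col6a2, Mmp2 to Timp2 and Mmp14 to Timp2 overlap. The 8 are not separate observations. Those to Col3a1, Lrat, Pdgfrb, Tagln and Vim share the numerator Col1a1, whose own values did not overlap. The pairs were chosen after their values were seen and were not tested.

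Among the surface and secreted markers, 1 of 4 was called. Reln, encoding the glycoprotein reelin, which stellate cells express in liver, was at 777, 961 and 1788 in R159 livers, against 2883, 1532 and 3363 in vehicle livers, with overlap between R159 replicate 3 and vehicle replicate 2. Its log2 fold change was -1.16 (SE 0.36, limma adjusted p = 0.0417), and -0.70 with the length trend removed (limma adjusted p = 0.283). The call was lost in 4 of 6 fits that left out 1 library. Pdgfrb, the receptor through which platelet-derived growth factor drives stellate cell proliferation, was at 561, 423 and 1022 in R159 livers, against 1370, 878 and 1272 in vehicle livers (-0.88, SE 0.32, limma adjusted p = 0.0665). Pdgfra, its relative, was at 273, 160 and 468 in R159 livers, against 531, 362 and 447 in vehicle livers (-0.69, SE 0.36, limma adjusted p = 0.182). Both receptors overlapped through R159 replicate 3, and both were called lower without it.

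Hhip, which encodes a decoy receptor that binds hedgehog ligands, was the member with the highest log2 fold change. It was at 58.5, 94.9 and 73.5 in R159 livers, against 32.4, 27.0 and 52.8 in vehicle livers, without overlap (log2 fold change 1.03, SE 0.41, limma adjusted p = 0.0876). Hhip was not called as deposited and was called higher with the length trend removed (1.54, SE 0.45, limma adjusted p = 0.0457). Its transcript has 9074 nt. The values correspond to only 54, 66 and 60 estimated reads in R159 libraries and 39, 37 and 63 in vehicle libraries. Its ratio to Reln differed in every library: per kb, Reln was 10.3, 7.85 and 18.9 times Hhip in R159 livers, against 69.0, 44.1 and 49.4 times in vehicle livers.

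**Figure D4:**
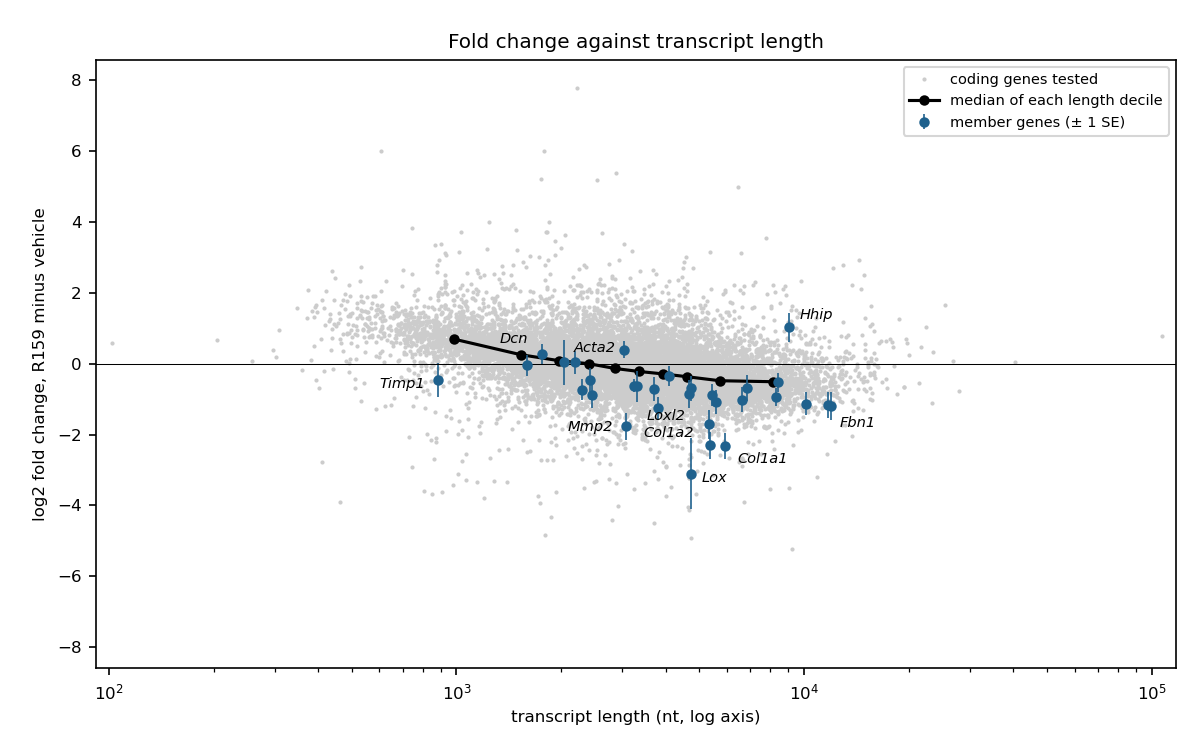
Log2 fold change (R159 minus vehicle) against transcript length (log axis) for tested coding genes (grey), the medians of length bins that hold equal numbers of genes (black) and the 31 members (blue, ± 1 SE). The black line falls with length, most members lie under it, and Col1a1, Col1a2, Lox, Loxl2 and Mmp2 lie well below it while Hhip lies above.

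Collagen maturation needs enzymes and chaperones of the secretory pathway, and of 26 tested genes of collagen synthesis and processing 3 were called lower (11.5%) and 1 higher (3.85%), at or under the 14.2% and 12.8% of all tested genes, with a median log2 fold change of -0.18. Tgm2, encoding a transglutaminase that crosslinks matrix proteins, was at 6516, 6230 and 9762 in R159 livers, against 20641, 18835 and 15350 in vehicle livers (log2 fold change -1.30, SE 0.21, limma adjusted p = 0.00496; -1.06 and 0.0131 with the length trend removed). Colgalt1, which encodes a galactosyltransferase of collagen, averaged 2981 ± 228 in R159 livers and 5500 ± 437 in vehicle livers (SD, n = 3 each; -0.88, SE 0.15, limma adjusted p = 0.00502; -0.70 and 0.0118 with the length trend removed). In both genes the groups were well apart.

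Of 35 tested genes of other interstitial and matricellular matrix, 7 were lower (20%, against 14.2% of all tested genes) and 1, Col5a3, was higher (2.86%, against 12.8%), with a median of -0.36. Tnc, encoding tenascin-C of healing tissue, was at 95.4, 111 and 108 in R159 livers, against 363, 264 and 256 in vehicle livers (log2 fold change -1.47, SE 0.25, limma adjusted p = 0.00541), and with the length trend removed missed the threshold (-0.95, limma adjusted p = 0.0503). With that trend removed the list had 0 lower and 2 higher.

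Other matrix proteases and inhibitors had 6 of 20 tested genes lower (30.0%, against 14.2% of all tested genes) and 0 higher, with a median of -0.83; with the length trend removed 3 were lower. All 20 had a log2 fold change below 0, as 26 of the 31 members did. The median was 0.001 over all tested genes and -0.29 over coding genes in the members' middle range of length. With the length trend removed not all of the 20 stayed below 0. Adam10, a membrane sheddase gene, averaged 818 ± 90.3 in R159 livers and 1730 ± 116 in vehicle livers (SD, n = 3 each; -1.08, SE 0.16, limma adjusted p = 0.00402). Mmp15, encoding a membrane-type metalloproteinase, was at 1549, 2081 and 2686 in R159 livers, against 5452, 5232 and 4277 in vehicle livers (-1.27, SE 0.21, limma adjusted p = 0.00525). Both stayed called with the length trend removed.

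Markers of cell types that could supply these transcripts were counted in the same way. Of 13 further stellate cell markers limma called 0 in either direction (2 at an unadjusted p under 0.05), with a median log2 fold change of -0.07, and their summed level was 6850 to 14900 in R159 livers and 7630 to 12000 in vehicle livers. They went both ways, and 8 of the 13 had a log2 fold change below 0. The 2 at an unadjusted p under 0.05 were Ngfr (log2 fold change -1.26) and Hand2 (0.50). Lrat, also among the 13, was at 1067, 753 and 993 in R159 livers, against 1479, 773 and 1413 in vehicle livers (-0.34). Of 6 tested portal fibroblast markers 1 was lower, Entpd2 (16.7%, against 14.2% of all tested genes). Entpd2, an ectonucleotidase gene, was at 142, 237 and 232 in R159 livers, against 733, 509 and 369 in vehicle livers (log2 fold change -1.37, SE 0.31, limma adjusted p = 0.0135). The summed portal fibroblast level was 534 to 1230 in R159 livers and 984 to 1450 in vehicle livers, and Clec3b was listed at 0 in 1 library.

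Vascular smooth muscle markers had 1 of 8 tested genes lower, Itga8 (12.5%, against 14.2% of all tested genes). Itga8, an integrin gene that stellate cells also express, had a log2 fold change of -1.22 (SE 0.26, limma adjusted p = 0.0104). With the length trend removed Itga8 was not called (-0.75, limma adjusted p = 0.0692), 0 of the 8 were lower and 1, Mylk, was higher, and the median of the list was 0.68, against 0.28 as deposited. The list had summed levels of 8970 to 11700 in R159 livers and 8220 to 9410 in vehicle livers. Actg2 and Cnn1 were each listed at 0 in at least 1 library. Mesothelial markers had 1 of 6 higher, Msln (16.7%, against 12.8% of all tested genes). Msln, encoding mesothelin, was at 250.3, 227 and 743 in R159 livers, against 84.7, 36.4 and 179 in vehicle livers (log2 fold change 2.07, SE 0.61, limma adjusted p = 0.0351). With the length trend removed it was no longer called (2.03, limma adjusted p = 0.0511). The summed level of the mesothelial markers was 528 to 1790 in R159 livers and 247 to 826 in vehicle livers. R159 replicate 3 had the highest sum of its group in all 9 lists of cell type markers, those of hepatocytes, endothelium and macrophages included, and the part of such cells in the level of the 31 genes was not tested.

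Of 12 endothelial markers 1 was lower (8.33%, against 14.2% of all tested genes), Tek (log2 fold change -0.85, limma adjusted p = 0.016). The endothelial sums were 13800 to 17600 in R159 livers and 14100 to 18800 in vehicle livers. With the length trend removed Tek was not called (-0.47, limma adjusted p = 0.116) and 0 of the 12 were lower. In that fit 9.95% of all genes were called higher, and 2 of the 12 were, Stab1 (0.92, limma adjusted p = 0.00411) and Fcgr2b (0.54, limma adjusted p = 0.0482). Macrophage markers had 3 of 11 lower, Adgre1, Csf1r and Cd5l (27.3%, against 14.2% of all tested genes). Their sums were 16700 to 23900 in R159 livers and 22700 to 34100 in vehicle livers. Csf1r was not called with the length trend removed (-0.61, limma adjusted p = 0.059), while Adgre1 and Cd5l were. Cd68, C1qa, C1qb and C1qc were called lower only with that trend removed (limma adjusted p = 0.0108, 0.0252, 0.0156 and 0.0302). The list then had 6 of 11 lower, against 8.21% of all genes in that fit, and a median of -0.83, against -0.34 as deposited. The list did not go one way: in Marco and Timd4 every R159 value lay above every vehicle value, though neither gene was called. Clec4f and Vsig4 overlapped between the groups (log2 fold change 0.20 and 0.25, limma adjusted p = 0.66 and 0.617). Marco was at 1375, 808 and 2874 in R159 livers, against 20.8, 397 and 622 in vehicle livers (log2 fold change 3.07, SE 1.08, limma adjusted p = 0.0619). Timd4 was at 215, 216 and 343 in R159 livers, against 10.8, 118 and 147 in vehicle livers (2.09, SE 0.83, limma adjusted p = 0.0872). Cholangiocyte markers had 1 of 5 higher, Krt7, and sums of 2050 to 4130 in R159 livers and 4130 to 12100 in vehicle livers. Most of that sum was Spp1, the osteopontin gene, at 1595, 3162 and 2937 in R159 livers, against 11470, 5198 and 3384 in vehicle livers (log2 fold change -1.26, SE 0.42, limma adjusted p = 0.0541). Spp1 was called lower with the length trend removed (-1.54, limma adjusted p = 0.028). Without Spp1 the sums were 454 to 1190 in R159 livers and 617 to 750.0 in vehicle livers and overlapped. Hepatocyte markers had 1 of 8 higher, Pck1, and 1 lower, Hnf4a (12.5% each, against 12.8% and 14.2% of all tested genes). Hnf4a was not called with the length trend removed (-0.33, limma adjusted p = 0.165). Of 5 adipocyte markers 1 was present in the tables, Cfd, at 72.6, 240.1 and 2956 in R159 livers, against 511, 186 and 604 in vehicle livers, and its high value fell again in R159 replicate 3.

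**Figure D5:**
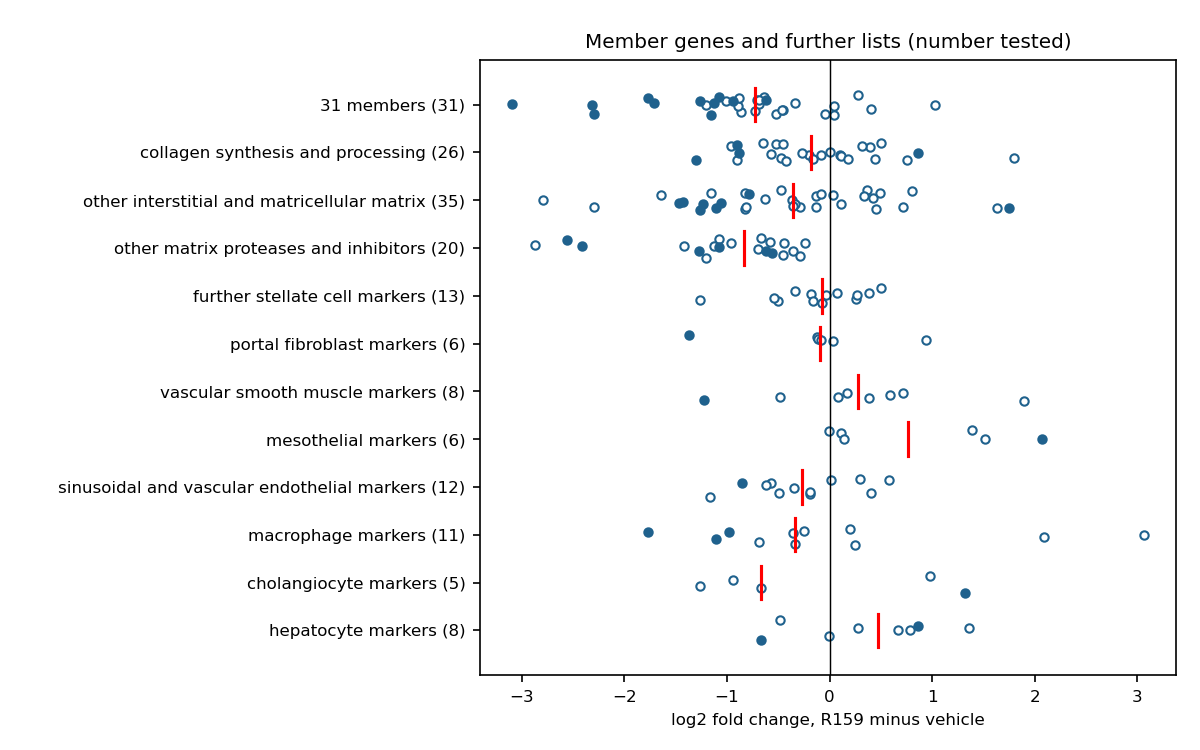
Log2 fold change (R159 minus vehicle) of each tested gene of the 31 members and of the further lists, filled where limma called the gene at adjusted p under 0.05, with a red bar at the median of each list. The medians are -0.73 for the members, -0.83 for other matrix proteases and inhibitors and -0.07 for further stellate cell markers.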

How the data were processed

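Poly(A) RNA of liver was made into 6 stranded libraries, 3 R159 and 3 vehicle, and read as 50 bp pairs, per the labels' protocols. Tools named in the submitters' processing notes are STAR 2.7.8a, cutadapt, FastQC 0.11.9, R 4.2.3 and DESeq2 (version written as 3.5), and the genome build named there is mm39. Which tool counted reads, on which annotation and whether by strand is not given in the sources used here. The deposited values are a signal: estimated, partly fractional gene counts divided by 1 factor per library. Low values pile up at multiples of 1 step per library, which gave the depth; in these units only 67.8% to 76.1% of the values below 200 came within 0.02 of a whole number, and no count model was used.

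Genes with a mean of at least 10 (16594) were fitted as log2(value + 1) with limma 3.58.1 (eBayes, trend = TRUE; the model held group alone) in R 4.3.3, adjusted by Benjamini-Hochberg over all of them; a fold change on this scale understates that of low genes. The code was tested on simulated data. Transcript length is that of the longest coding transcript of a GENCODE annotation of another build (GRCm38), for 16074 tested genes; the length trend of each library was removed with a lowess curve (span 0.3) over coding genes with a mean of at least 100. The members, role groups, further lists and tests were chosen with earlier results of these data known. The text names all 31 members and, of each further list, the 2 called genes of smallest p. Col5a3, Tgm2 and the rest follow from that rule. Lrat, Ngfr, Hand2, Cd5l, Cd68, C1qa, C1qb, C1qc, Marco, Timd4, Clec4f, Vsig4, Stab1, Fcgr2b, Spp1, Mylk, Alb and Cfd were chosen after their values were seen. So were the genes that overlap a member and the ratios. Alternatives were other pseudocounts, filters, scaling and empirical Bayes settings, a replicate block, the length correction and leaving out each library. Plots came from matplotlib 3.10.9 (Python 3.11.15).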

Additional observations from a re-analysis of the deposited data

How the results depend on the processing

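Of the 31 genes, 11 were called lower. The count was 10 with a pseudocount of 0.5, 10 with a mean of at least 50 and 10 under scaling by trimmed means of M values, 11 with a pseudocount of 8 and 11 without a filter; Lox fell under the filter of 50 and has no value there. It was 5 without the empirical Bayes trend and 3 with the length trend removed, where 1 gene was called higher; over all tested genes those settings gave 1443 and 1320 called lower. Leaving out 1 library moved the count of members called lower between 3 and 20, that of all genes called lower between 923 and 2909 and that of all genes called higher between 918 and 2516. The libraries that moved the members' count by over 1.5 times were R159 replicate 1 (7), R159 replicate 2 (5), R159 replicate 3 (20), vehicle replicate 1 (3) and vehicle replicate 3 (3). In those fits, in the same order, 2909, 1782, 2024, 1252 and 1117 of all genes were called lower, out of 16458 to 16683 tested. Samples of the same replicate number share only that number: their deviations correlated at -0.0981, 0.0314 and 0.108. With a replicate block 13 members were called lower, Col5a2 and Pdgfrb being added, beside 2033 of all 16594 tested genes.

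Signs turned only where no setting gave a call. The log2 fold change of Acta2 was -0.03 with the length trend removed, and when 1 library was left out it ranged between -0.78 and 0.75 for Acta2, -0.30 and 0.32 for Tagln, -0.34 and 0.40 for Vim, -0.01 and 0.61 for Dcn and -0.87 and 0.08 for Timp1. Apart from the length correction, the cause was not tested. Lox, Hhip and Timp1 rest on few reads; Lox had 5, 0 and 15 estimated reads in R159 libraries.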
